A study of Mus musculus with 2 samples.

Results

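Natural killer (NK) cells were taken from 2 single-cell RNA libraries of CD45-positive cells sorted from mouse lungs bearing HKP1 tumours. HKP1 is a mouse lung cancer cell line, here injected into the tail vein at 150000 cells per mouse. A cell was a member where at least 3 of 8 genes (Ncr1, Klrb1c, Klre1, Klra8, Klra4, Gzma, Prf1 and Eomes) had a unique molecular identifier (UMI, the tag that marks 1 captured RNA molecule), and none of Cd3e, Cd3d, Cd3g, Cd79a, C1qa and Csf3r did. The members were thus chosen by these 14 genes' own measured values, which are given below as description. This gave 525 NK cells among 11905 cells in all, 254 of 6203 in the DT library and 271 of 5702 in the PBS library.

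The DT group was Scgb1a1cre/iDTR mice given tamoxifen (2 mg per 20 g on days 3 to 7), an anti-PD-1 antibody (250 µg per mouse on day 6), diphtheria toxin (2 doses of 600 ng per 20 g on days 8 and 9) and lung radiation of 4 Gy on each of 3 days (days 10 to 12). The PBS group shared the genotype, tumour cells, tamoxifen, antibody and radiation, and is labelled PBS in place of the toxin. In these mice a club-cell Cre, switched on by tamoxifen, lets the toxin receptor appear in Scgb1a1-expressing airway cells, so that the toxin can delete them. Lungs were collected 24 to 48 h after radiation. Each group is 1 library, 4 mice per group are recorded, and the labels used here give no age or sex. With 1 library a group, differences between the libraries have no replicate check. All intervals below are exact 95% intervals that cover counting error only, and no p-value was computed.

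NK cells are innate lymphocytes that kill stressed or transformed cells by releasing perforin and granzymes, and that secrete interferon-gamma and chemokines. Activating and inhibitory receptors at their surface set the response to a target, and interleukin-15 keeps them alive. In the mouse they mature from CD27-positive stages that express Tcf7, Ltb and Emb toward CD11b-positive, KLRG1-positive stages under Tbx21 and Zeb2. Granzyme B, encoded by Gzmb on chr14:56258836-56262334 of GRCm38.p6, is a serine protease stored in the killing granules and translated mainly after cytokine exposure.

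The first 250 bases upstream of the start site are shown for the granzyme genes Gzmb and Gzma, whose RNA went together across cells, for Itgam, a gene of mature NK cells, and for Cxcr4, a gene whose RNA was higher where Gzmb was not detected. The sequences are RefSeq's for GRCm38.p6, on the strand of the gene, 5′ to 3′, and capitals mark motif matches.
Gzmb (chr14:56262335-56262584, minus strand): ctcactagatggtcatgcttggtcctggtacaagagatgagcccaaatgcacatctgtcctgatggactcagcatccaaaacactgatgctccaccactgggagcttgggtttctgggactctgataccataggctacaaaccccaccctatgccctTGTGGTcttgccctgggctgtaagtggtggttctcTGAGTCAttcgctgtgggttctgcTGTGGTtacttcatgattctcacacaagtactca
Gzma (chr13:113100982-113101231, minus strand): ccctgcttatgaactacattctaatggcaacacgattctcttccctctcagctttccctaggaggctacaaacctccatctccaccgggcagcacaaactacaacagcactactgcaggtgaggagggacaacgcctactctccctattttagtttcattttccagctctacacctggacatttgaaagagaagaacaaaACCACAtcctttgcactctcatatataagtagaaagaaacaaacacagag
Itgam (chr7:128062390-128062639, plus strand): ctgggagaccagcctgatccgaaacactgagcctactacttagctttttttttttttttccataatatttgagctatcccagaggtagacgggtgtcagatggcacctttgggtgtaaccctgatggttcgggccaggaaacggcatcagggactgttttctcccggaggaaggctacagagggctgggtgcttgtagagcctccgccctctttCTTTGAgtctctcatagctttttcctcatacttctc
Cxcr4 (chr1:128592300-128592549, minus strand): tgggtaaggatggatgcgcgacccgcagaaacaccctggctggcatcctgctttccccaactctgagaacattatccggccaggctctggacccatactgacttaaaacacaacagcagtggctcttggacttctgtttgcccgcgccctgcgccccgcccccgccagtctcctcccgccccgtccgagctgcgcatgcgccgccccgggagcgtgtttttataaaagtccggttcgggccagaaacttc
Both strands were searched for TCACACC (T-box), TGTGGT (Runx), CTTTGA (TCF/LEF), TGANTCA (AP-1) and TTCNNNGAA (Stat). Gzmb held the Runx letters at -93 to -88 and at -34 to -29 from the start site and the AP-1 letters at -58 to -52, and no matches overlapped. Gzma held the Runx letters on its opposite strand at -50 to -45, Itgam the TCF/LEF letters at -36 to -31, and Cxcr4 none of the 5. Among 27025 promoters of the same length, 14.2% held the Runx letters, 14% the TCF/LEF letters, 6.87% the AP-1 letters, 7.18% the Stat letters and 3.31% the T-box letters. A match is a run of letters, not a bound site.

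Of 18 NK marker genes outside the rule, several were detected in most of the cells, although some of these are shared with related cells. Others were found in fewer. Klrg1 was detected in 26.4% of DT and 36.5% of PBS NK cells, Xcl1 in 30.3% and 35.8%, and Tbx21 in 31.1% and 42.8%. Among genes the rule did not use, Nkg7, a granule membrane protein, was detected in 97.6% of DT and 99.3% of PBS NK cells, and Klrk1, the NKG2D receptor, in 94.9% and 96.3%. Il2rb, the shared interleukin-2 and interleukin-15 receptor chain, was detected in 95.7% of DT and 93.7% of PBS cells, and Tyrobp, the adaptor of several activating receptors, in 96.9% and 98.2%. Nkg7 was also found in 60.9% of DT and 62.2% of PBS T cells and in 87.8% and 88.8% of CD8 T cells, Il2rb in 63.8% and 59.1% of T cells, and Tyrobp in 96.8% and 98.3% of neutrophils. Klrk1 set the cells apart more, with 16.5% of DT and 18.3% of PBS T cells and 3.56% and 4.07% of neutrophils. Of the T cell receptor constant genes, Trac was found in 8.66% of DT and 8.49% of PBS NK cells. Trdc was found in 29.1% and 25.5%, and Trbc2 in 32.7% and 35.8%. Ptprc, which encodes the sorted antigen CD45, was detected in 98.8% of DT and 99.3% of PBS cells.

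Among the genes of the rule, given as description, Ncr1, the NKp46 receptor, was detected in 76.0% of DT and 84.9% of PBS cells, Klrb1c (NK1.1) in 91.3% and 90.8%, and Eomes, a T-box factor of conventional NK cells, in 53.1% and 42.1%. At the edge of the rule, 16 DT and 13 PBS cells had exactly 3 of the 8 genes, and 11 DT and 6 PBS cells with exactly 2 were left outside. At the other end 31 DT and 40 PBS cells had all 8. A further 96 DT and 114 PBS cells had 3 or more of the genes but were removed by an excluding gene. Klra4 and Klra8 belong to the near-identical Ly49 family, and reads could be split among its members.

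**Figure D1:**
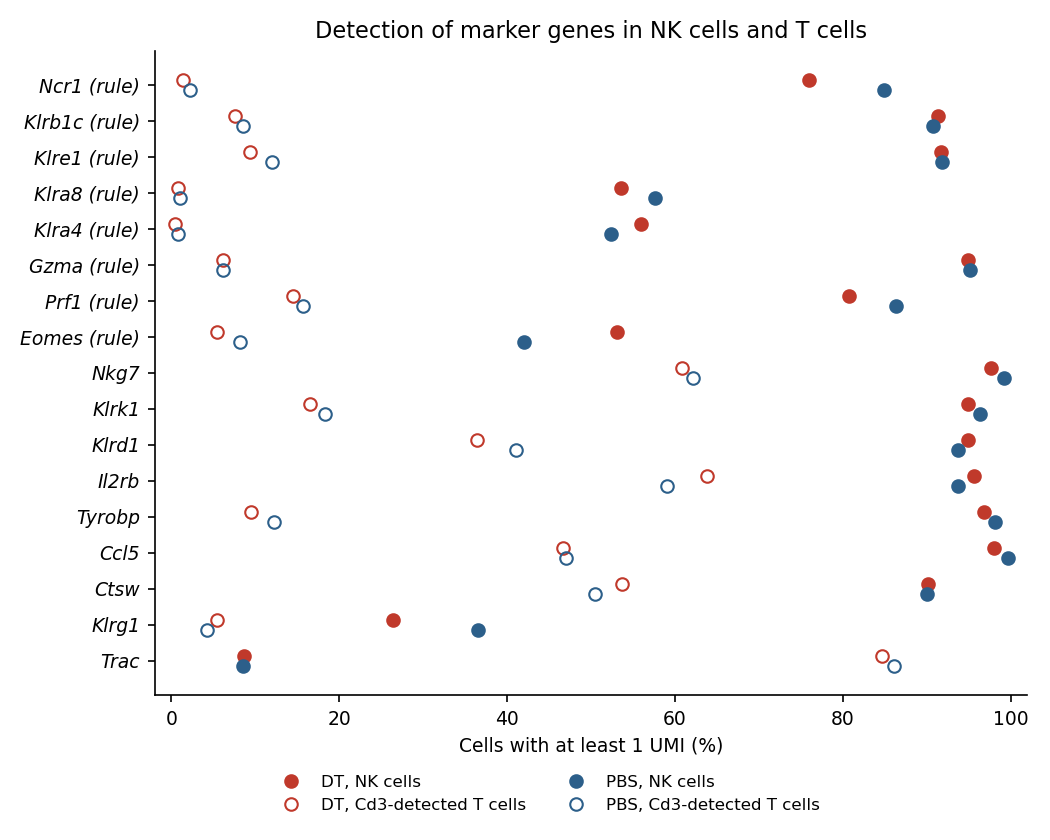
Share of cells with at least 1 UMI of each gene (x axis, %) in NK cells (filled) and T cells (open), DT in red and PBS in blue. T cells, here and in the text, had more than 1 of Cd3e, Cd3d and Cd3g and none of Cd79a, C1qa and Csf3r. CD8 T cells also had Cd8a or Cd8b1 and no Cd4. The 8 genes of the rule are marked; Nkg7 reached 97.6% of DT and 99.3% of PBS NK cells, and Trac 8.66% and 8.49%.

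Depth was close in the NK cells of both libraries. The median was 3224.5 UMIs and 1599.5 genes per DT cell, against 3353 UMIs and 1620 genes per PBS cell, and the summed UMIs were 1005765 in DT and 1052703 in PBS. Whole libraries held 27896059 UMIs in DT and 31089434 in PBS, and of the 8 cell barcodes that the libraries share, 0 belonged to NK cells. The libraries differed in sex mix. By Xist and 4 Y-linked genes, 44 DT NK cells were called male and 97 female, while 109 PBS NK cells were called male and 17 female, so the treatment and the sex of the mice cannot be told apart in the pooled values. Values within male-called and female-called cells are given beside the lists whose median they turn and beside several genes, and the PBS side of the female-called values rests on 17 cells. Xist itself stood at 209 CPM (UMI counts scaled to a total of 1000000) in DT and 24.7 CPM in PBS NK cells.

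A few NK cells also carried RNA of other cell types. In 12 DT and 3 PBS cells at least 0.3% of the UMIs came from marker lists of other types, led by macrophage genes in 7 and B cell genes in 5 of the DT cells, and by macrophage genes in 2 and stromal genes in 1 of the PBS cells. Their median was 8027 UMIs in DT and 8797 UMIs in PBS. The lists themselves picked these mixed cells, so a fall of the lists' total without the cells follows from the choice and tests nothing. The summed level of the 12 macrophage markers came to 1215 CPM in DT and 308 CPM in PBS, and 143 and 153 CPM without these cells. The summed B cell list of 11 genes came to 937 CPM in DT and 277 CPM in PBS, and 228 and 275 CPM without them. Of the defining markers, 1 of the macrophage list and 2 of the B cell list were at 0 in both libraries. The rule itself sets C1qa, Cd79a, the Cd3 genes and Csf3r to 0. They are among the markers at 0 in these lists and in the T cell and neutrophil lists, and say nothing on purity. The 13 T cell markers, 5 of them at 0, summed to 780 CPM in DT and 770 CPM in PBS, and the 11 neutrophil markers, 3 of them at 0, to 79.5 and 90.2 CPM. Of the mixed cells, 8 in DT and 2 in PBS were female-called. Those 2 PBS cells held 11851 and 8797 of the 65163 UMIs of the 17 female-called PBS cells. The female-called values include them and were not computed without them.

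NK cells made up 4.09% of the DT library (3.62 to 4.62) and 4.75% of the PBS library (4.21 to 5.34). The ratio of DT to PBS was 0.862 with an interval of 0.723 to 1.03, which includes no difference. It was 1.10 (0.758 to 1.58) among male-called cells and 1.07 (0.638 to 1.92) among female-called cells. A lower share cannot be told apart from a higher number of other CD45-positive cells in the sort.

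Gzmb was detected in 207 of 254 DT NK cells, 81.5% (76.2 to 86.1), and in 224 of 271 PBS NK cells, 82.7% (77.6 to 87.0). The difference was -1.16 percentage points with an interval of -8.02 to 5.65. With each cell thinned to 1000 UMIs, which left out 4 DT and 6 PBS cells, the shares were 61.6% in DT (55.3 to 67.7) and 64.5% in PBS (58.4 to 70.3). The summed level came to 1925 CPM in DT and 1888 CPM in PBS NK cells, with a median of 4 UMIs per cell in each. Among male-called cells the level was 1521 CPM in DT against 1774 CPM in PBS (ratio 0.857, 0.736 to 0.995), and among female-called cells 2166 CPM in DT against 1320 CPM in PBS (ratio 1.64, 1.32 to 2.07), so the near-equal pooled level did not hold within each sex call. T cells, which express the gene in part, had it in 20.6% of DT and 16.3% of PBS cells, and the Cd3-detected cells that also carried 3 NK genes had it in 71.2% of 59 DT and 54.9% of 71 PBS cells. B cells, which should lack it, showed 0.697% in DT and 0.379% in PBS at median depths of 2423 and 2818 UMIs. The NK shares thus stood far above the level of free RNA.

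To compare expression, UMIs of each gene were summed over the NK cells of a library and given as CPM of that sum, and the log2 ratio of DT to PBS was taken after adding 5 CPM. Of 8544 genes with at least 20 UMIs, 570 (6.67%) were higher in DT by 1.5-fold or more and 446 (5.22%) lower, and the median log2 ratio over all of them was 0.00. With the further condition that the interval of the ratio leaves out 1, 325 (3.8%) were higher and 267 (3.12%) lower. Of any size, 50.1% were higher. The median over the same genes was 0.00 among male-called and 0.094 among female-called cells. Without the 12 and 3 mixed cells the counts were 468 higher and 457 lower, with median-of-ratios scaling 515 higher and 525 lower, and in male-called cells 629 higher and 712 lower, so the balance between higher and lower genes is not stable. The gene lists below are read against these shares.

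The killing machinery was at near-equal levels in both libraries. Of 22 measured granule and killing genes, 12 were higher and 10 lower in DT, 1 passed 1.5-fold and the median log2 ratio was 0.02 (-0.092 among male-called and -0.035 among female-called cells). Perforin (Prf1, chr10:61297751-61304684), which opens the target membrane, stood at 880 CPM in DT and 954 CPM in PBS. Granzyme A (Gzma, chr13:113093824-113100981) stood at 12491 CPM in DT and 13141 CPM in PBS; both are genes of the rule. Serpinb9, the inhibitor that protects the killer from its own granzyme B, stood at 523 CPM in DT and 405 CPM in PBS, with a ratio of 1.29 (1.14 to 1.47) and a log2 ratio of 0.02 in male-called cells. The gene past 1.5-fold was Lamp1, a granule membrane protein exposed on release, at 159 CPM in DT and 103 CPM in PBS; its log2 ratio of 0.61 was 0.20 without the mixed cells.

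More receptors of target recognition were lower than higher in DT in the pooled cells, and their median was close to that of all genes within the sex calls. Among 18 measured activating receptors and adaptors 13 were lower and 5 higher, 2 were lower by 1.5-fold, and the median log2 ratio was -0.13, against 0.081 among male-called and 0.049 among female-called cells. Those 2 were Cd226 (DNAM-1), at 54.7 CPM in DT and 99.7 CPM in PBS with a ratio of 0.548 (0.388 to 0.767), and Crtam, at 23.9 and 45.6 CPM with a ratio of 0.523 (0.307 to 0.871). Crtam had 0 UMIs in DT and 38 UMIs in PBS male-called cells, and 12 and 0 UMIs in female-called cells. Both bind nectin or nectin-like ligands. Klrk1 stood at 1046 CPM in DT and 1304 CPM in PBS, with a ratio of 0.802 (0.739 to 0.870). Of 11 inhibitory receptors 5 were higher and 6 lower, with a median log2 ratio of -0.02 (0.38 in female-called cells). Pdcd1, the receptor that the anti-PD-1 antibody binds, had 0 UMIs in both libraries, which allows up to 1.18% of DT and 1.11% of PBS cells with a UMI and sets no limit on cells that express it below detection. Klra1, an inhibitory Ly49 receptor, stood apart by sex call, with 10 UMIs in DT and 73 in PBS male-called cells, and 106 in DT and 0 in PBS female-called cells.

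The median of the mature NK genes differed by sex call, and the female-called PBS cells include 2 mixed cells. Of 16 mature NK genes 11 were lower and 5 higher in DT, with a median log2 ratio of -0.17, which was 0.16 among male-called and -0.61 among female-called cells. By 1.5-fold 1 of 16 was lower, near the 5.22% of all genes. That gene was Klrg1 (chr6:122270596-122282833), an inhibitory receptor of mature cells, at 105 CPM in DT and 168 CPM in PBS with a ratio of 0.627 (0.488 to 0.802). It was lower in DT among male-called cells (log2 ratio -1.01) and female-called cells (-1.05). Tbx21, which encodes T-bet, stood at 109 CPM in DT and 168 CPM in PBS, with a ratio of 0.650 (0.508 to 0.830), and was the 1 of 19 transcription factors past 1.5-fold. The median of these factors was -0.039 pooled, 0.19 among male-called and 0.040 among female-called cells. Klf2, which drives S1P receptor expression and exit from tissue, stood at 513 CPM in DT and 754 CPM in PBS, but its log2 ratio was 0.00 in male-called cells. Of 14 immature NK genes 8 were higher and 6 lower, with a median log2 ratio of 0.04 in the pooled cells, 0.37 among male-called and 1.58 among female-called cells. Their 1 gene past the fold was Thy1, at 173 CPM in DT and 98.8 CPM in PBS (ratio 1.75, 1.37 to 2.25), while Cd27, a costimulatory receptor of early stages, was lower at 81.5 CPM in DT and 123 CPM in PBS (ratio 0.660, 0.495 to 0.877).

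**Figure D2:**
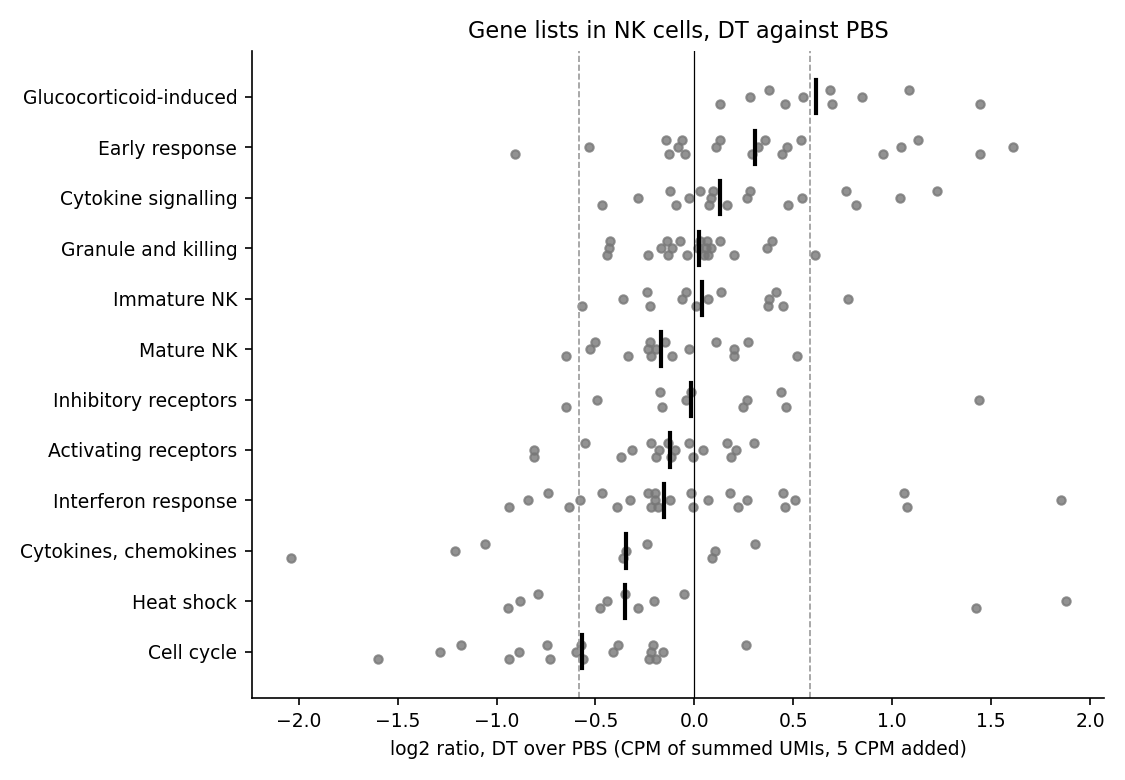
Log2 ratio of DT to PBS (x axis, CPM of summed UMIs with 5 CPM added) for each measured gene of 12 lists, 1 point a gene. Black bars are list medians and dashed lines mark 1.5-fold; the glucocorticoid-induced list has its median at 0.62 and the cell cycle list at -0.57.

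Secreted factors showed the widest single-gene difference among the 12 lists plotted, and it lay in few cells. Ccl4 (chr11:83648624-83664683), a macrophage and T cell attractant also called MIP-1 beta, had 225 UMIs in DT and 985 UMIs in PBS, or 224 and 936 CPM, a ratio of 0.239 (0.206 to 0.277). It was found in 58 DT cells and 80 PBS cells. The highest DT cells held 37, 25 and 24 UMIs and the highest PBS cells 376, 183 and 161, so the top 5 cells carried 54.2% of the UMIs in DT and 81.2% in PBS. Ccl3, its neighbour and partner, had 129 UMIs in DT and 287 UMIs in PBS (ratio 0.470, 0.379 to 0.581), with 28 in the highest DT cell and 104 in the highest PBS cell. The annotated spans of these genes overlap, so reads between them may be uncertain. Male-called cells gave log2 ratios of -1.53 for Ccl4 and -3.19 for Ccl3, the pooled direction. Female-called cells gave 2.72 for Ccl4, from 62 UMIs in DT and 1 UMI in PBS. For Ccl3 they gave 0.28, from 63 and 7 UMIs, with a ratio of 1.23 (0.561 to 3.17) that includes no difference.

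Interferon-gamma (Ifng, chr10:118441046-118445894), the main macrophage-activating cytokine of NK cells, had 38 UMIs in 29 DT cells and 99 UMIs in 60 PBS cells. The level reached 37.8 CPM in DT and 94.0 CPM in PBS, with a ratio of 0.402 (0.269 to 0.589). No cell dominated it, with at most 3 UMIs in a DT cell and 13 UMIs in a PBS cell. The log2 ratio was 0.29 among male-called cells, from 11 UMIs in DT and 30 UMIs in PBS (ratio 1.24, 0.563 to 2.55). It was -2.61 among female-called cells, from 10 UMIs in DT and 10 UMIs in PBS (ratio 0.136, 0.0508 to 0.364). Xcl1, the attractant of cross-presenting dendritic cells, was found in 77 DT and 97 PBS cells at 639 and 755 CPM, and Ccl5 in nearly every cell, at 13898 CPM in DT and 17645 CPM in PBS (ratio 0.788, 0.770 to 0.805). Over the 9 measured secreted factors 6 were lower and 3 higher in DT, 3 were lower by 1.5-fold, and the median log2 ratio was -0.34. That median was -0.26 without the mixed cells and 0.28 in female-called cells. In T cells of the same libraries the log2 ratios were -0.45 for Ccl4, 0.26 for Ccl3 and -0.09 for Ifng.

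**Figure D3:**
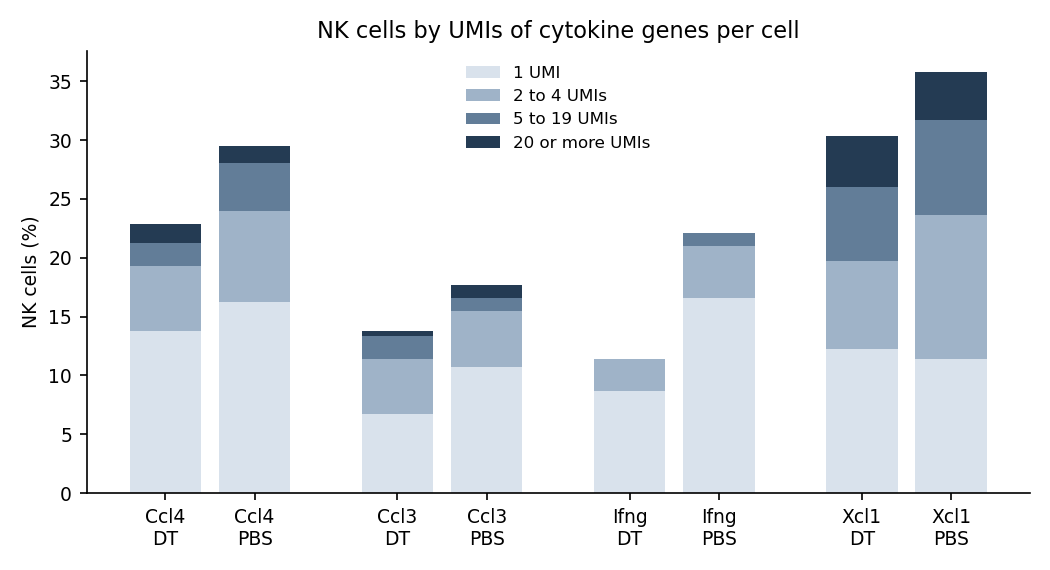
Share of NK cells (y axis, %) with 1, 2 to 4, 5 to 19 and 20 or more UMIs of Ccl4, Ccl3, Ifng and Xcl1, the DT bar left of the PBS bar for each gene. The DT bars reach 22.8% for Ccl4 and 11.4% for Ifng, and the PBS bars 29.5% and 22.1%.

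Cytokine receptors were close between the libraries and their signalling genes leaned higher in DT, with 7 of 16 receptors higher and 9 lower (median log2 ratio -0.05, but 0.28 among male-called and 0.25 among female-called cells) and 13 of 18 signalling genes higher and 5 lower (median 0.13). Il2rb stood at 1328 CPM in DT and 1057 CPM in PBS, with a ratio of 1.26 (1.16 to 1.36). The survival gene Bcl2 stood at 721 CPM in DT and 518 CPM in PBS (ratio 1.39, 1.24 to 1.56). Its pro-death partner Bcl2l11 (BIM) stood at 238 CPM in DT and 138 CPM in PBS (ratio 1.73, 1.40 to 2.14), with log2 ratios of 0.82 among male-called and 0.86 among female-called cells. Both were also higher in DT T cells, by 0.58 and 0.53 on the log2 scale. Cish, a feedback inhibitor of interleukin-15 signalling, had 23 UMIs in DT and 9 UMIs in PBS (ratio 2.67, 1.19 to 6.57). Socs3 passed the fold at a log2 ratio of 1.22 but stood at 0.04 without the mixed cells and -0.65 in female-called cells.

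Glucocorticoid-induced genes were higher in DT in each of the 10 measured, 5 of them by 1.5-fold, with a median log2 ratio of 0.62. The median was 0.52 without the mixed cells, 0.64 among male-called and 0.48 among female-called cells, and 0.44 in T cells, so the shift was seen beyond NK cells. Ddit4, an inhibitor of mTORC1, stood at 82.5 CPM in DT and 43.7 CPM in PBS (ratio 1.89, 1.30 to 2.77), and the clock gene Per1 at 33.8 and 13.3 CPM (ratio 2.54, 1.33 to 5.13), although Per1 had 2 UMIs in DT and 8 UMIs in PBS among male-called cells, a log2 ratio of -0.18. Txnip, a brake on glucose uptake, stood at 379 CPM in DT and 257 CPM in PBS (ratio 1.47, 1.26 to 1.73), but its log2 ratio was -0.37 in female-called cells. The classic targets of the list differed less. Tsc22d3 (GILZ), with a log2 ratio of -0.49 in female-called cells, stood at 366 CPM in DT and 334 CPM in PBS (ratio 1.09, 0.943 to 1.27), and Fkbp5 at 128 and 104 CPM (ratio 1.23, 0.944 to 1.60). Dusp1, with a log2 ratio of 1.44, was at 0.65 without the mixed cells and -0.69 in female-called cells.

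Early response genes, induced within minutes of stimulation or of tissue dissociation, were higher in 13 of 20 with a median log2 ratio of 0.31, which was 0.05 without the mixed cells. Atf3 had a log2 ratio of 1.61 with the mixed cells and 0.25 without them, and Zfp36 1.04 and 0.26, with -0.34 in female-called cells. Tnfaip3 (A20), a brake on NF-kappa-B, kept its value at 0.96 with them and 1.01 without them, with UMIs in 59 DT cells and 26 PBS cells.

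Chaperones were lower in DT in 9 of 11 genes of the heat shock list, with a median log2 ratio of -0.35. Dnaja1, a co-chaperone of HSP70, stood at 89.5 CPM in DT and 169 CPM in PBS (ratio 0.529, 0.406 to 0.686), Hsph1 at 19.9 and 42.7 CPM, and Hsp90ab1 at 937 and 1272 CPM (ratio 0.736, 0.677 to 0.801). Dnaja1 was also lower in DT T cells, by a log2 ratio of -0.61. The exceptions were the inducible HSP70 genes Hspa1a and Hspa1b, whose log2 ratios of 1.43 and 1.88 were -1.12 and 0.08 without the mixed cells. These 2 genes are near-identical copies and their counts are uncertain.

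Proliferation genes were lower in DT, but they rest on few cells. Cells with at least 2 of 6 mitotic genes numbered 5 of 254 in DT, 1.97% (0.642 to 4.53), and 13 of 271 in PBS, 4.80% (2.58 to 8.06), and these intervals overlap. Of 18 measured cell cycle genes 17 were lower and 1 higher, 8 were lower by 1.5-fold, and the median log2 ratio was -0.57. Without the cycling cells the median was 0.22. Tyms, which makes thymidylate for DNA synthesis, had 8 UMIs in DT and 36 UMIs in PBS, and Mki67, the Ki-67 antigen, had 39 UMIs in 10 DT cells and 72 UMIs in 14 PBS cells. The histone genes Hist1h1b and Hist1h2ap, copied in S phase, had 10 and 104 UMIs in DT and 71 and 360 UMIs in PBS. The 5 DT cycling cells were all female-called, and of the PBS cycling cells 6 were male-called and 7 uncalled, so the list's median was -2.04 among male-called and 1.83 among female-called cells.

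Interferon response genes were mixed, 10 of 26 higher and 16 lower, 3 and 4 past 1.5-fold, with a median log2 ratio of -0.15 that was -0.016 among male-called and 0.35 among female-called cells. Isg15, an interferon-induced ubiquitin-like protein, stood at 29.8 CPM in DT and 61.7 CPM in PBS (ratio 0.483, 0.303 to 0.755), with a log2 ratio of 1.20 in female-called cells. Igtp, an interferon-gamma-induced GTPase, stood at 32.8 CPM in DT and 62.7 CPM in PBS (ratio 0.523, 0.334 to 0.806). Iigp1, of the same GTPase family, had 20 UMIs in DT and 2 UMIs in PBS. Ly6a (Sca-1) had 104 UMIs in DT and 49 UMIs in PBS, and 69 and 22 UMIs without the mixed cells (ratio 3.56, 2.18 to 6.04). Its log2 ratio was -0.35 among male-called cells, from 4 UMIs in DT and 18 UMIs in PBS, and -1.14 among female-called cells. Of the 27 UMIs of Ly6a in female-called PBS cells, 26 lay in 1 mixed cell. In the p53 list, of interest after radiation given to both groups, 6 of 11 genes were higher and 5 lower with a median of 0.03. Bax, a mitochondrial death effector, stood at 309 CPM in DT and 213 CPM in PBS (ratio 1.45, 1.22 to 1.73). Homing and adhesion genes were higher in 15 of 21, with a median of 0.11. Among them Itga2 (CD49b) stood at 128 CPM in DT and 85.5 CPM in PBS (ratio 1.5, 1.14 to 1.99), and Cxcr4, the bone marrow retention receptor, at 106 and 76.0 CPM (ratio 1.40, 1.04 to 1.89).

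Most of the extreme single genes are known from other cell types. Of the 12 genes highest in DT by the fixed ranking, Cd74, H2-Aa, H2-Eb1, Lyz2, Cybb, Ccl6, Wfdc17 and Cxcl2 are antigen-presentation or myeloid genes, and Fscn1 had 52 of its 53 UMIs in a single DT cell. Cd74 had 570 UMIs in DT and 66 UMIs in PBS, with 345 in 1 DT cell. Lyz2 had 622 and 101 UMIs, with 238 in 1 DT cell. Without the mixed cells the log2 ratio of Lyz2 was -0.31, but Lyz2 is among the genes that picked those cells. Among the 12 lowest, the fibroblast genes Dcn and Col3a1 had 0 UMIs in DT and 146 and 98 UMIs in 1 PBS cell. Igkc, an immunoglobulin chain that NK cells do not make, had 10 UMIs in 10 DT cells and 55 UMIs in 49 PBS cells, near 1 UMI a cell. Scgb1a1, the secretoglobin of the club cells that the toxin targets, had 0 UMIs in DT NK cells and 44 UMIs in PBS NK cells, in 14.0% of them. Against 3 UMIs over the DT group this is at least 14.0-fold lower in DT. The same difference was seen outside NK cells. Scgb1a1 was detected in 13.4% of PBS and 0.199% of DT B cells. In neutrophils the shares were 14.9% in PBS and 0.205% in DT, and in CD8 T cells 16.4% and 0%. The difference was thus not particular to NK cells, and the source of this RNA was not tested.

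Without the mixed cells, Spp1, the secreted phosphoprotein osteopontin, and Ly6a followed Xist among the highest in DT. The values that follow are over all NK cells, mixed cells included, unless stated. Spp1 had 110 UMIs in 18 DT cells and 12 UMIs in 9 PBS cells, and 87 and 12 UMIs without the mixed cells. Its top 5 DT cells held 88 of the 110 UMIs. Among male-called cells it had 0 UMIs in DT and 8 UMIs in PBS, so its excess in DT lay in other cells. Plcg2, a phospholipase downstream of activating receptors, stood at 64.6 CPM in DT and 34.2 CPM in PBS (ratio 1.89, 1.24 to 2.92). Without the mixed cells Plcg2 stood at 69.7 and 34.1 CPM (ratio 2.04, 1.33 to 3.18). Serpine2, a protease inhibitor, stood at 101 CPM in DT and 49.4 CPM in PBS, and at a log2 ratio of 1.36 in T cells. On the lower side stood Ccl4, Ccl3, Ifng, Isg15, the S-phase genes and Itpripl1. Itpripl1, a membrane protein gene, had 15 UMIs in 14 DT cells and 59 UMIs in 51 PBS cells, lower in DT in male-called (log2 ratio -0.76) and female-called cells (-2.86).

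Within each library the NK cells with Gzmb were next set against those without it. The Gzmb-detected cells numbered 207 in DT and 224 in PBS and the rest 47 in each. Median depth was 3256 UMIs in Gzmb-detected and 3099 UMIs in the other DT cells, and 3321.5 and 3511 UMIs in PBS, so the medians of the groups were close. Of 5938 genes tested, 28.7% were higher and 26.7% lower at any size in both libraries. By 1.5-fold, 201 (3.38%) were higher in the Gzmb-detected cells of both libraries and 134 (2.26%) lower in both. In single libraries 16.4% of genes in DT and 14.1% in PBS were higher, and 187 genes (3.15%) passed the fold in opposite directions. The split of 60.0% higher moved to 79.2% with trimmed-mean scaling (309 higher, 81 lower), which shifts every log2 ratio by 0.118 in DT and 0.115 in PBS, and to 76.9% with median-of-ratios scaling (267 and 80). The lists below are read relative to such a shift.

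Gzmb-detected cells were richer in mature NK genes in both libraries, and in some but not all of the other killing genes. Of 15 measured mature NK genes 12 were higher in both, 6 of them by 1.5-fold, and 1 was lower in both; the medians were 0.73 in DT and 0.87 in PBS, against 0.03 and 0.00 over all genes, and 0.57 and 0.44 after thinning. Itgam (CD11b, chr7:128062640-128118491) stood at 140 CPM in Gzmb-detected and 67.6 CPM in other DT cells (ratio 2.07, 1.12 to 4.26), and at 138 and 17.5 CPM in PBS (ratio 7.93, 2.65 to 39.0). Klrg1 stood at 116 and 49.2 CPM in DT (ratio 2.36, 1.15 to 5.63) and at 191 and 52.4 CPM in PBS (ratio 3.64, 1.87 to 8.10). Cma1, a chymase of mature NK cells, stood at 177 and 73.7 CPM in DT (ratio 2.40, 1.33 to 4.74) and at 210 and 75.7 CPM in PBS (ratio 2.78, 1.58 to 5.31).

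Zeb2, a repressor needed for terminal maturation, stood at 225 CPM in Gzmb-detected and 104 CPM in other DT cells, and at 288 and 122 CPM in PBS, but with each cell thinned to 1000 UMIs its log2 ratios were 0.05 and 0.03. Irf8 was at 766 and 485 CPM in DT (ratio 1.58, 1.25 to 2.02) and 665 and 244 CPM in PBS (ratio 2.72, 1.99 to 3.82). Tbx21, with log2 ratios of 0.62 in DT and 0.94 in PBS, was higher as well, while Eomes, a gene of the rule, was at -0.32 and -0.34.

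The granule list of 19 genes without Gzmb had 10 higher and 3 lower in both libraries, with medians of 0.27 in DT and 0.42 in PBS. With each cell thinned to 1000 UMIs the medians were 0.37 in DT and 0.0046 in PBS, so the lean of the list in PBS was not seen after thinning. Because thinning also redrew the Gzmb groups, this change cannot be put down to depth alone. Gzma stood at 13914 CPM in Gzmb-detected and 5119 CPM in other DT cells (ratio 2.72, 2.53 to 2.92), and at 14608 and 5623 CPM in PBS (ratio 2.60, 2.43 to 2.78). Prf1 stood at 974 and 393 CPM in DT (ratio 2.48, 1.92 to 3.25) and 1065 and 384 CPM in PBS (ratio 2.77, 2.16 to 3.61). Gzma and Prf1 were among the genes that chose the cells, so a cell without Gzmb could enter through either of them. Serpinb9, the inhibitor of granzyme B, was at 562 and 320 CPM in DT (ratio 1.76, 1.32 to 2.39) and 440 and 221 CPM in PBS (ratio 1.99, 1.43 to 2.86). Its relative Serpinb9b was at 185 and 24.6 CPM in DT and 157 and 46.6 CPM in PBS, and reads of these similar genes may be shared. Srgn, the proteoglycan that packs granzymes, did not follow, with log2 ratios of -0.17 in DT and -0.19 in PBS.

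Ccl3, Ccl4 and Ccl5 were also higher in Gzmb-detected cells, but Ccl3 and Ccl4 rested on few cells. Ccl3 had log2 ratios of 2.09 in DT and 2.82 in PBS, Ccl4 1.97 and 3.04, and Ccl5 0.76 and 0.83. The top 5 NK cells held 57.4% of the Ccl3 UMIs in DT and 76.0% in PBS, and 54.2% and 81.2% of those of Ccl4. Cells without Gzmb held 5 UMIs of Ccl3 in DT and 7 in PBS, and 10 and 22 UMIs of Ccl4. Xcl1 differed between the libraries, at 635 CPM in Gzmb-detected and 664 CPM in other DT cells (ratio 0.956, 0.776 to 1.19), and at 648 and 1304 CPM in PBS (ratio 0.497, 0.425 to 0.583).

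**Figure D4:**
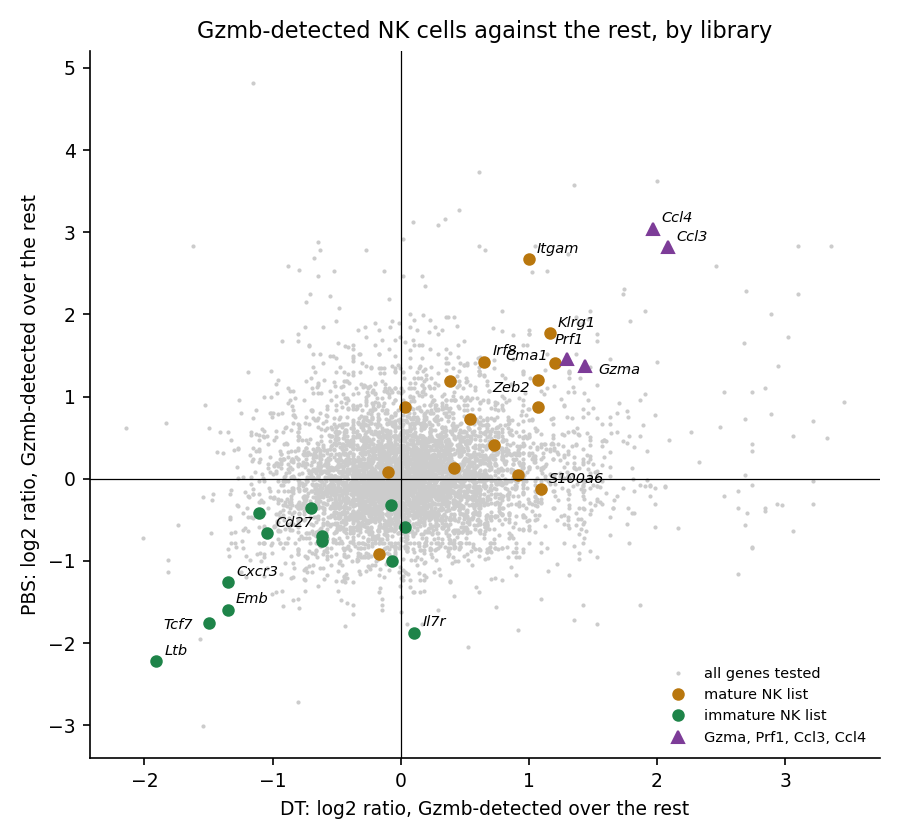
Log2 ratio of Gzmb-detected over other NK cells in DT (x axis) against that in PBS (y axis), 1 point for each of 5938 genes, with mature NK genes in orange, immature NK genes in green and 4 effector genes as purple triangles. Ltb lies at -1.91 in DT and -2.22 in PBS and Klrg1 at 1.16 and 1.77.

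Immature NK genes ran the other way. Of 13 measured, 11 were lower in Gzmb-detected cells of both libraries, 7 of them by 1.5-fold, and 0 were higher in both; the medians were -0.70 in DT and -0.75 in PBS, and -1.06 and -0.97 after thinning. Ltb (chr17:35194507-35196305), the lymphotoxin beta chain, stood at 117 CPM in Gzmb-detected and 455 CPM in other DT cells (ratio 0.258, 0.189 to 0.354), and at 137 and 658 CPM in PBS (ratio 0.209, 0.160 to 0.272). Tcf7 (chr11:52246527-52283383), the Wnt-pathway factor TCF1 of early lymphocytes, stood at 66.4 and 197 CPM in DT (ratio 0.338, 0.215 to 0.539) and 46.5 and 169 CPM in PBS (ratio 0.276, 0.167 to 0.460). Emb, a surface glycoprotein of early NK cells, stood at 199 and 516 CPM in DT (ratio 0.386, 0.295 to 0.508) and 178 and 547 CPM in PBS (ratio 0.326, 0.251 to 0.425).

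Other members of that list showed the same order. Cd27 had log2 ratios of -1.05 in DT and -0.66 in PBS, Cxcr3, a receptor for interferon-induced chemokines, -1.35 and -1.26, and Cd7 -0.61 and -0.75. Outside that list, Cxcr4, whose promoter is printed above, stood at 89.0 CPM in Gzmb-detected and 197 CPM in other DT cells, and at 65.8 and 128 CPM in PBS. Il7r of the list, the interleukin-7 receptor, was an exception, at 0.10 in DT and -1.87 in PBS. Also outside it, Pmepa1 and Smad7, feedback genes of TGF-beta signalling, were lower in Gzmb-detected cells by log2 ratios of -1.12 and -0.76 in DT and -0.92 and -1.11 in PBS.

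Ranking the Gzmb-detected cells by the share of their UMIs from Gzmb, and cutting them into 3 tiers of 69 cells in DT and 74 or 75 cells in PBS, gave a graded picture. From cells without Gzmb through the lower, middle and upper tier, Gzma stood at 5119, 8513, 14437 and 21369 CPM in DT and at 5623, 9685, 15575 and 20418 CPM in PBS. Prf1 stood at 393, 563, 867 and 1708 CPM in DT and at 384, 642, 1169 and 1542 CPM in PBS. Both genes were higher at each step of both libraries.

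Klrg1 followed with 49.2, 46.2, 125 and 211 CPM in DT and 52.4, 126, 182 and 289 CPM in PBS, so that the lower tier of DT lay beside its cells without Gzmb. Ltb went the other way, with 455, 208, 90.9 and 12.9 CPM in DT and 658, 254, 79.7 and 34.7 CPM in PBS. Tcf7 stood at 197, 124, 45.4 and 4.30 CPM in DT and at 169, 58.7, 41.7 and 34.7 CPM in PBS. Ltb and Tcf7 were thus lower at each step in both libraries. Ccl4 stood at 61.5, 242, 352 and 163 CPM in DT and at 128, 187, 831 and 2610 CPM in PBS. Ccl3 stood at 30.7, 136, 208 and 94.6 CPM in DT and at 40.7, 83.8, 72.1 and 890 CPM in PBS. Of these 2 chemokine genes, only Ccl4 in PBS was higher at each step. Summed over the lists, mature NK genes stood at 5138, 6441, 7961 and 9407 CPM in DT and 5751, 6972, 8137 and 9401 CPM in PBS, and immature NK genes at 4314, 3489, 2038 and 1824 CPM in DT and 5058, 2914, 2334 and 1846 CPM in PBS. Median depth in the same order was 3099, 4038, 3212 and 2924 UMIs in DT and 3511, 3847, 3169 and 3006 UMIs in PBS, and the part of depth in these gradients was not tested.

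**Figure D5:**
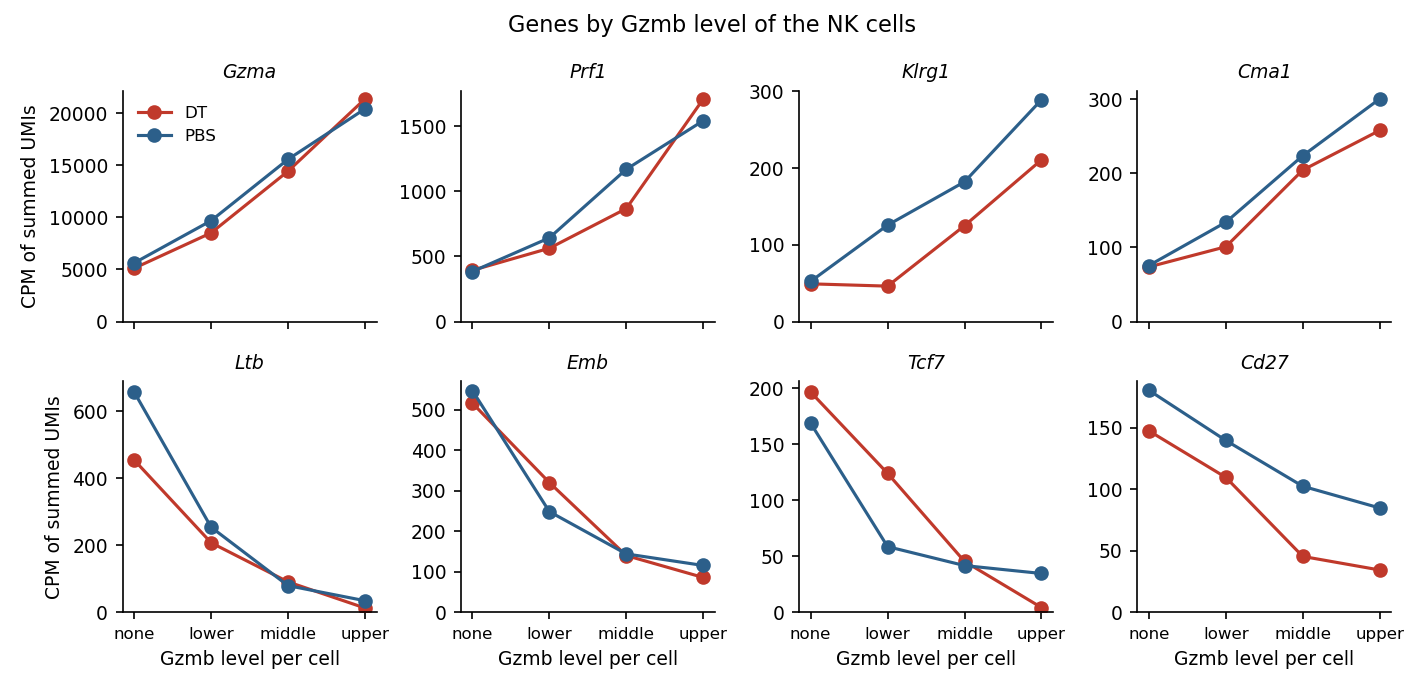
CPM of summed UMIs (y axis) of 8 genes in NK cells without Gzmb and in the lower, middle and upper tier of Gzmb-detected cells (x axis), DT in red and PBS in blue. Gzma reaches 21369 CPM in the upper tier of DT and 20418 CPM in that of PBS, and Ltb comes down to 12.9 and 34.7 CPM.

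Ribosomal protein genes were lower in Gzmb-detected cells of both libraries in 44 of 80 and higher in both in 8, with medians of -0.13 in DT and -0.15 in PBS, a size that the scaling shift of 0.118 and 0.115 nearly removes. Cell cycle genes were higher in both in 6 of 12 and lower in 0, with medians of 0.68 in DT and 0.08 in PBS that turned to -0.16 and -0.32 after thinning. The myeloid genes Lyz2 and Apoe were higher in Gzmb-detected cells, at log2 ratios of 3.46 and 2.95 in DT and 0.93 and 1.38 in PBS. The 4 measured macrophage markers had medians of -0.59 in DT and -0.08 in PBS without the mixed cells, which these markers had helped to pick.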

How the data were processed

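The authors deposited 1 table per library, a sorted CD45-positive lung 10x Genomics 3′ library, with a column for each of 16184 genes and a row for each cell. The deposited values are log2(CPM + 1), where CPM scales the UMIs of a cell to a total of 1000000. STAR, Seurat and Partek and the build mm10 are named per the submitters' processing notes, with no versions. UMI counts were recovered from the deposited log2 values, which came out whole within 1%, and the analysis, planned for counts, ran on these.

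The 8 genes of the rule, the lists and the members were chosen with earlier results of these data known. The named genes are the 12 highest and 12 lowest log2 ratios among genes with at least 50 UMIs in total, 50 CPM in a group, a ratio past 1.5-fold and an interval without 1, with the same ranking without mixed cells, and for Gzmb the ranking by the mean of both libraries, plus list members. No doublet caller was run; the excluding genes and an alternative without mixed cells stand in for it. With 1 library per group there is no test. Ratios carry exact conditional binomial intervals and shares Clopper-Pearson intervals. 0 value columns of other samples were present. Alternatives (22 planned, 2 added after seeing the data) covered the rule, depth, scaling, added CPM, gene minimum, sex call and single cells. The scripts were tested on simulated data and ran in Python 3.11.15 with numpy 2.4.6, scipy 1.17.1, pandas 2.3.3 and matplotlib 3.10.9.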

Additional observations from a re-analysis of the deposited data

Results flagged for a closer look

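In 5 genes the DT to PBS difference pointed in opposite directions among male-called and female-called NK cells, which rest on 44 DT and 109 PBS male-called and 97 DT and 17 PBS female-called cells. Of the 17 PBS female-called cells, 2 carried RNA of other cell types. The difference between the sex calls was not tested for any of the 5 genes. Xcl1, the chemokine for cross-presenting dendritic cells, had a log2 ratio of DT to PBS of -1.58 among male-called and 2.67 among female-called cells. Cxcl10, an interferon-induced chemokine, had 3.57 among male-called and -3.12 among female-called cells. The male-called DT cells held 64 of its UMIs and the female-called PBS cells 31, in each case all in a single cell. Each direction of Cxcl10 thus rests on 1 cell. Rgs1, a regulator of chemokine receptor signalling, had -1.67 and 1.30. S100a6, a calcium-binding protein of mature cells, had 0.77 and -0.66. Tubb5, a tubulin gene of the cell cycle list, had -1.06 and 0.78, beside 5 female-called cycling cells in DT and 6 male-called ones in PBS.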

How the results depend on the processing

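Values compare 2 libraries with no replicate, in few cells: 47 without Gzmb in each library and 17 female-called in PBS, 2 of them mixed cells. No paired analysis was possible because each group is a single library. The NK share ratio was 1.10 among male-called and 1.07 among female-called cells; the Gzmb-detected share stayed inside its interval under each alternative run. Counts of genes past 1.5-fold are given as higher and lower for DT against PBS, then for the Gzmb split. They were 168, 123, 98 and 57 with 20 CPM added, 79, 67, 25 and 9 with at least 100 UMIs per gene, 1310, 1055, 799 and 478 with at least 1 UMI, 208, 276, 322 and 88 from means of the deposited log2 values, and 1038, 733, 19 and 3 in female-called cells. In male-called cells 712 were lower in DT, and the split gave 30 and 23. For the split alone they were 66 and 31 after thinning, 309 and 81 with trimmed-mean factors (80 lower with median-of-ratios factors), 96 higher with Gzmb from 2 UMIs, and 563 and 53 without the top cell of each gene, a setting chosen after seeing the data that removes 1 of 47 cells.

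These log2 ratios of DT to PBS turned. In female-called cells they were 0.28 for Ccl3, 2.72 for Ccl4, 2.23 for Hist1h2ap, 1.20 for Isg15, -0.064 for Kdm6a, -1.14 for Ly6a, -1.27 for Tnk2, -0.72 for Wfdc17, 0.28 for the secreted factor list and 1.83 for the cell cycle list. In male-called cells they were 0.40 for Eif2s3y, 0.29 for Ifng, -0.35 for Ly6a and -0.080 for Lyz2. The cell cycle list stood at 0.10 with 6 more excluding genes, 0.049 after thinning and 0.22 without cycling cells. Birc5 was 0.074 with each cell weighted alike, and Serpine2 -0.20 after thinning. Means of deposited log2 values gave 0.059 for Ccl2, 0.039 for Gsn, -0.059 for Lyz2 and 0.19 for Mgp. Without mixed cells H2-Aa was -0.31, H2-Eb1 -0.26 and Lyz2 -0.31, and without the top cell Ccl2 was 1.23, Gsn 1.03 and Mgp 1.13, both settings chosen after seeing the data. H2-Aa, H2-Eb1 and Lyz2 are among the genes that picked the mixed cells. In the Gzmb split the cell cycle list was -0.24 after thinning, -0.11 without cycling cells and -0.29 with each cell alike, and the secreted factor list -0.086 with Gzmb from 2 UMIs. Beyond these settings' construction, the cause was not tested. Single genes and lists of the split were not run in female-called cells, with under 5 cells in a group.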

Other observations

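T cell receptor constant genes were found in part of the NK cells although no Cd3 gene was. Trdc was detected in 29.1% of DT and 25.5% of PBS NK cells and Trac in 8.66% and 8.49%, while the summed gamma-delta list stood at 132 CPM in DT and 129 CPM in PBS. Genes of type 1 innate lymphoid cells, a tissue-resident relative of NK cells, were higher in DT in 6 of 7 measured, with a median log2 ratio of 0.69, and 0.33 without the mixed cells. Itga1 (CD49a), a marker of those cells, had 25 UMIs in 16 DT cells and 13 UMIs in 9 PBS cells, a ratio of 2.01 (0.992 to 4.28). Of the 11 NK-marker cells left outside in DT with exactly 2 of the 8 genes, 5 had Gzmb, against 0 of 6 in PBS.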
